A study of Mus musculus with 2 samples.

Results

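The let-7 genes that lie outside the clusters shared with Mir125 were described in the gastrocnemius, a large muscle of the calf. The 9 genes are Mirlet7a-1, Mirlet7f-1, Mirlet7d, Mirlet7f-2, Mir98, Mirlet7b, Mirlet7c-2, Mirlet7g and Mirlet7i. They were chosen by name, as the let-7 family genes with no Mir125 gene beside them, from 2202 microRNA genes in the tables. The remaining let-7 genes, Mirlet7a-2, Mirlet7c-1 and Mirlet7e, stand beside Mir125 genes. MicroRNA-seq, which counts reads of short RNA (inserts under 30 nt), was run on muscle of adult male mice of 18 to 20 months. The animals were B6CASTF1/J, the first generation of a cross of C57BL/6J with CAST/EiJ. There was 1 group of 2 libraries, biological replicates 2 and 1, with no treatment and no second tissue or age. The libraries came from separate biosamples entered under the same donor in the labels, which do not say whether these were separate animals. Differences between the libraries may therefore be technical.

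In replicate 2, 2156222 counts fell to microRNA genes, and in replicate 1 the number was 4442692, so levels in replicate 1 rest on 2.06-fold more counts. Levels are given as CPM, counts scaled to a common total of assigned counts, as mean ± SD over the 2 libraries or as the value in each. A read covers a whole mature microRNA, so levels were not divided by gene length. A count of 0 would allow up to 1.39 CPM in replicate 2 and 0.675 CPM in replicate 1. Reads that matched several places, 70.2% of all reads in replicate 2 and 73.8% in replicate 1, are not part of the gene counts. The counts come from PCR-amplified reads, and every interval covers counting error only. In a whole muscle, fewer cells of a type and less RNA per cell cannot be told apart.

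The let-7 family is among the most conserved groups of animal microRNAs. Each gene is transcribed into a hairpin that is cut into a short duplex, and the strand from its 5′ arm (5p) is the one usually loaded into an Argonaute protein. Bases 2 to 8 of that strand, the seed, pair with target mRNAs, so genes with the same seed share much of their target set. The protein LIN28 binds let-7 precursors and blocks their maturation in embryonic cells, and mature let-7 accumulates as tissues differentiate. Known targets include Hmga2, Ras genes and components of insulin and IGF signalling, through which let-7 affects glucose metabolism in mouse muscle.

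All 9 genes were found in the RefSeq microRNA table (GRCm38.p6, the assembly also called mm10), and their hairpins were letter for letter those of GENCODE M21. The 9 genes carry 8 distinct 5p sequences of 22 nt with 1 common seed. They are shown 5′ to 3′ with the seed in capitals, since the bases outside it are what separates the genes from each other.

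let-7a-5p, of Mirlet7a-1: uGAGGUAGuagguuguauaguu
let-7f-5p, of Mirlet7f-1 and Mirlet7f-2: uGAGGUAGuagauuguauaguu
let-7d-5p, of Mirlet7d: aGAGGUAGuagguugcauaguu
miR-98-5p, of Mir98: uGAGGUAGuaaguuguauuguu
let-7b-5p, of Mirlet7b: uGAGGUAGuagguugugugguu
let-7c-5p, of Mirlet7c-2: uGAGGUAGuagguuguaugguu
let-7g-5p, of Mirlet7g: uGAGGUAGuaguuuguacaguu
let-7i-5p, of Mirlet7i: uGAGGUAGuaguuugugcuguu

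Against let-7a-5p, with positions counted from 1 at the 5′ end, let-7f-5p differs by G12A and let-7c-5p by A19G. The sequence of Mir98 differs by G11A and A19U, that of Mirlet7d by U1A and U16C, and that of Mirlet7b by A17G and A19G. Mirlet7g differs by G12U and U18C, and Mirlet7i, the farthest, by G12U, A17G, U18C and A19U. Mirlet7d alone among them starts with A.

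The let-7 genes outside the Mir125 clusters held 15.7% ± 4.16 of all assigned counts (SD, n = 2). Their share was 18.6% in replicate 2 (Wilson 95% interval 18.56 to 18.67) and 12.7% in replicate 1 (12.71 to 12.77). Of the assigned counts of the whole let-7 family of 12 genes they held 97.8% in both libraries. Reads that matched several places are in neither sum. Since let-7a-5p, let-7c-5p and let-7f-5p each occur in 2 let-7 genes, the share among all let-7 reads is not known. All 9 were detected at 2 CPM or more in both libraries, as were 324 of the 2202 genes. From the highest member to the lowest the level fell 238-fold in replicate 2 and 296-fold in replicate 1. Genes with the same seed were thus counted at very unequal levels. The lowest, Mirlet7f-1, has its 5p sequence in common with Mirlet7f-2. Among the 5 members whose 5p sequence occurs in 1 microRNA gene, Mirlet7g was highest and Mir98 lowest. They were at 61074 and 2753 CPM in replicate 2, and at 43995 and 2333 CPM in replicate 1.

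Mirlet7g, in an intron of Wdr82, a gene for a subunit of a histone H3K4 methyltransferase complex, was the highest member, at 61074 CPM in replicate 2 and 43995 CPM in replicate 1. Mirlet7i, which overlaps an exon of the transcribed pseudogene D630033A02Rik, stood at 58846 CPM in replicate 2 and at 39734 CPM in replicate 1. These ranges overlapped, and Mirlet7g over Mirlet7i was 1.04 in replicate 2 and 1.11 in replicate 1, so their order was the same in both libraries but lay within the spread between them. Together these 2 genes summed to 119920 CPM in replicate 2 and 83730 CPM in replicate 1. By assigned counts they ranked 3 and 4 among all microRNA genes in replicate 2, and 5 and 6 in replicate 1. Reads that matched several places are not in these counts, so the ranks need not be those of the mature microRNAs.

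Next came Mirlet7b, with 30875 CPM in replicate 2 and 18174 CPM in replicate 1. Mirlet7d followed at 25628 CPM in replicate 2 and 15828 CPM in replicate 1. The ranges of Mirlet7b and Mirlet7d overlapped as well, and neither range reached that of Mirlet7i above or of Mirlet7f-2 below. Mirlet7f-2 was at 5939 CPM in replicate 2 and at 6541 CPM in replicate 1, and was the member whose level in replicate 2 lay below that in replicate 1. Mir98, its neighbour on the X chromosome, was at 2753 CPM in replicate 2 and at 2333 CPM in replicate 1. Both ranked in the top 43 genes of either library by assigned counts.

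The lowest 3 members stood well apart from the rest. Mirlet7c-2 reached 484 CPM in replicate 2 and 431 CPM in replicate 1. The level of Mirlet7a-1 was 303 CPM in replicate 2 and 198 CPM in replicate 1, and that of Mirlet7f-1 was 256 and 149 CPM. The ranges of Mirlet7a-1 and Mirlet7f-1 overlapped, while that of Mirlet7c-2 lay above both. The order of all 9 members was the same in both libraries.

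**Figure D1:**
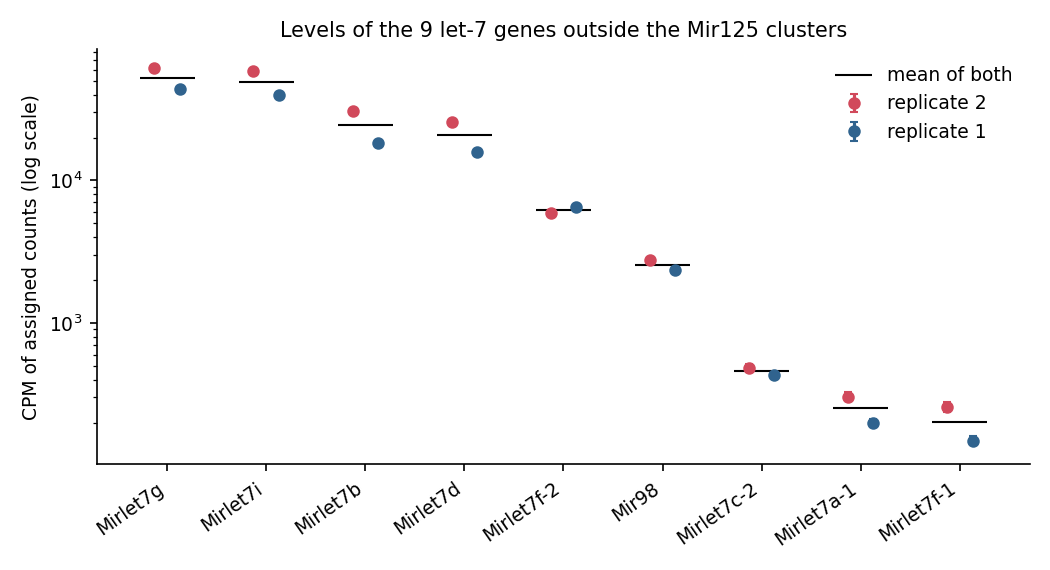
CPM of each of the 9 let-7 genes on a log axis, in order of the mean, with replicate 2 in red on the left and replicate 1 in blue on the right of each gene; black lines are the mean of both and error bars the Wilson 95% counting interval, mostly smaller than the points. Mirlet7g and Mirlet7i lie between 39734 and 61074 CPM, while Mirlet7c-2, Mirlet7a-1 and Mirlet7f-1 lie between 149 and 484 CPM.

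The levels were set beside how far each gene's sequence can be told from other microRNA genes. For each gene, the shortest stretch from the start of its 5p sequence that occurs in 1 of the 2202 M21 hairpins was found. Mirlet7d needed 9 nt and Mir98 needed 11 nt, and Mirlet7b, Mirlet7g and Mirlet7i each needed 17 nt, all within the 22 nt of the mature sequence. The stretch ran past the mature end for the other members, to 23 nt for Mirlet7f-1 and Mirlet7f-2 and to 24 nt for Mirlet7a-1 and Mirlet7c-2. The 5p sequences of Mirlet7a-1 and Mirlet7c-2 are those of Mirlet7a-2 and Mirlet7c-1, outside the set, and Mirlet7f-1 and Mirlet7f-2 have theirs in common. Each pair is shown as the 5p sequence with the 4 bases that follow it in the hairpin. The first base that differs between the copies is in capitals. It marks the length at which a read from the 5p start, with no base changed or added, matches only 1 of them.

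Mirlet7f-2, chrX:151912353-151912378, plus strand: ugagguaguagauuguauaguuUuag
Mirlet7f-1, chr13:48537885-48537910, minus strand: ugagguaguagauuguauaguuGugg
Mirlet7a-1, chr13:48538235-48538260, minus strand: ugagguaguagguuguauaguuuUag
Mirlet7a-2, chr9:41536732-41536757, plus strand: ugagguaguagguuguauaguuuAga
Mirlet7c-2, chr15:85706616-85706641, plus strand: ugagguaguagguuguaugguuuUgg
Mirlet7c-1, chr16:77599672-77599697, plus strand: ugagguaguagguuguaugguuuAga

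The substitution from Mirlet7f-1 to Mirlet7f-2 is G23U, and those from Mirlet7a-1 to Mirlet7a-2 and from Mirlet7c-2 to Mirlet7c-1 are both U24A. The 3′ arms (3p) set the genes apart differently. The 3p sequences of Mirlet7f-1 and Mirlet7f-2 each occur in 1 microRNA gene, whereas Mirlet7a-1 and Mirlet7c-2 carry the same 3p sequence, printed here with its bases 2 to 8 in capitals.

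3p of Mirlet7a-1 and of Mirlet7c-2: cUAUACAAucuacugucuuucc

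Both arms of Mirlet7a-1 and of Mirlet7c-2 are thus also found at another let-7 locus. The 5 members whose 5p sequence occurs in 1 microRNA gene (Mirlet7d, Mir98, Mirlet7b, Mirlet7g and Mirlet7i) held 96.2% of the counts of the 9 genes in replicate 2 and 94.3% in replicate 1. Of the 4 members with a 5p sequence at another locus, Mirlet7c-2, Mirlet7a-1 and Mirlet7f-1 were the lowest of the set. Mirlet7f-2 was the exception, 23.2-fold above Mirlet7f-1 in replicate 2 (exact 95% counting interval 21.3 to 25.3) and 44.0-fold in replicate 1 (40.7 to 47.6), though both make the same 22 nt. A read of such a copied 5p sequence, or of a part of it, matches at least 2 genes and so is not in the counts. For Mirlet7a-1 and Mirlet7c-2 this holds for any unchanged read from the 5p start shorter than 24 nt. A let-7f-5p read with a U added at its end would match Mirlet7f-2 alone, whichever of the 2 genes it came from. How many reads of these 4 genes were lost or misplaced in these ways was not tested. Their levels and the ratio of the let-7f genes are therefore uncertain. The counts do not show from which arm or with which length a read came.

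Among all microRNA genes whose hairpin holds a RefSeq mature sequence, 348 have at least 1 that occurs in several genes, and 3 of these (0.862%) averaged 1000 CPM or more. Those 3, named after their values were seen, were Mirlet7f-2, Mir92-1 and Mir196a-2. Of the 902 genes whose mature sequences each occur in 1 gene, 41 (4.55%) did. The share detected at 2 CPM or more in both libraries was 12.9% of the 348 genes and 27.2% of the 902. Among the detected genes alone the order was the other way, with a median of the mean CPM of 77.6 in genes with a copied mature sequence and 49.2 in the others. Only M21 microRNA genes were searched, so copies elsewhere in the genome were not counted.

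**Figure D2:**
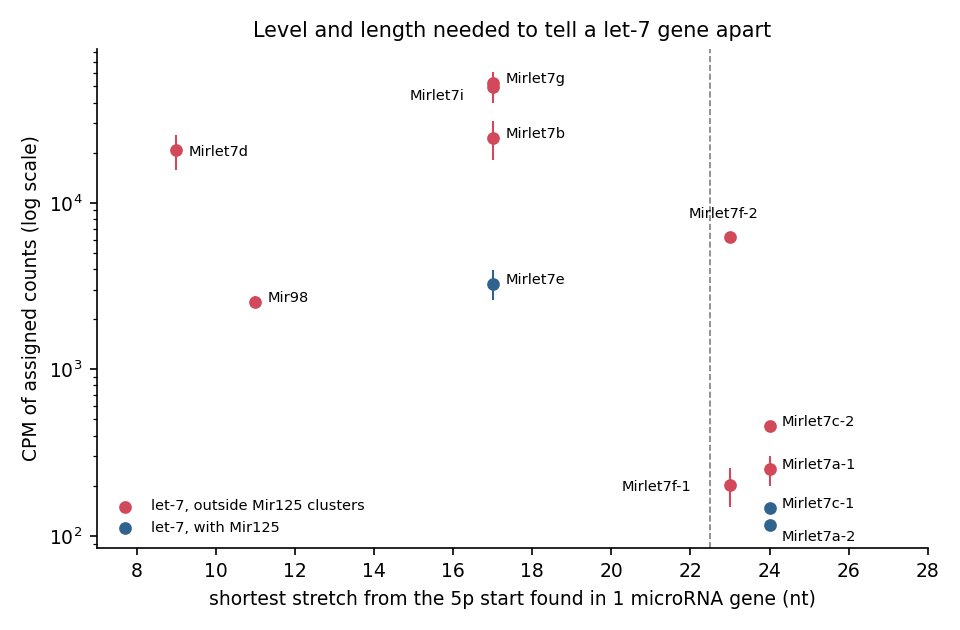
Mean CPM of both libraries on a log axis for the 12 let-7 genes, against the shortest stretch in nt from the 5p start that occurs in 1 microRNA gene; vertical lines span the 2 libraries and the dashed line marks the end of the 22 nt mature sequence. Right of the line Mirlet7f-2 alone lies above 1000 CPM, and left of it Mir98, at 2543 CPM, is the lowest gene.

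The 9 genes lie at 5 loci, and genes of the same locus differed in assigned counts. The ratios to Mirlet7d, Mirlet7b and Mir98 set a gene with a copied 5p sequence against a gene with its own. Reads of a copied 5p sequence, or of a part of it, are not counted, so these ratios need not be those of the mature microRNAs. The hairpins of Mirlet7a-1 (chr13:48538179-48538272), Mirlet7f-1 (chr13:48537829-48537917) and Mirlet7d (chr13:48536012-48536114) follow each other on the minus strand and overlap an exon of the lincRNA 6720427I07Rik. Mirlet7d was 84.5-fold above Mirlet7a-1 in replicate 2 (78.2 to 91.4) and 80.0-fold in replicate 1 (74.9 to 85.6). It was 99.9-fold above Mirlet7f-1 in replicate 2 (91.9 to 109) and 106-fold in replicate 1 (98.5 to 115). The intervals of the 2 libraries overlap for each of these ratios, so a difference in these proportions between the libraries was not detectable at this depth.

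On chromosome 15 the hairpins of Mirlet7c-2 (chr15:85706603-85706697) and Mirlet7b (chr15:85707319-85707403) lie 621 bp apart on the plus strand and overlap an exon of the noncoding transcript Lncppara. Mirlet7b was 63.8-fold above Mirlet7c-2 in replicate 2 (60.0 to 67.9) and 42.2-fold in replicate 1 (40.3 to 44.1). Here the proportions differed between the libraries beyond counting error. On chromosome X, Mirlet7f-2 (chrX:151912346-151912428) and Mir98 (chrX:151913214-151913321) lie 785 bp apart in an intron of Huwe1, a ubiquitin ligase gene. The ratio of Mirlet7f-2 to Mir98 was 2.16 in replicate 2 (2.09 to 2.22) and 2.80 in replicate 1 (2.74 to 2.87), again different beyond counting error. In both of these loci the gene with a copied 5p sequence made up a smaller part of the assigned counts of its locus in replicate 2. Reads of the copied sequence, or of a part of it, are not among these counts. Mirlet7g (chr9:106178840-106178927, plus strand) and Mirlet7i (chr10:122985640-122985724, minus strand) have no other microRNA gene within 10000 bp.

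**Figure D3:**
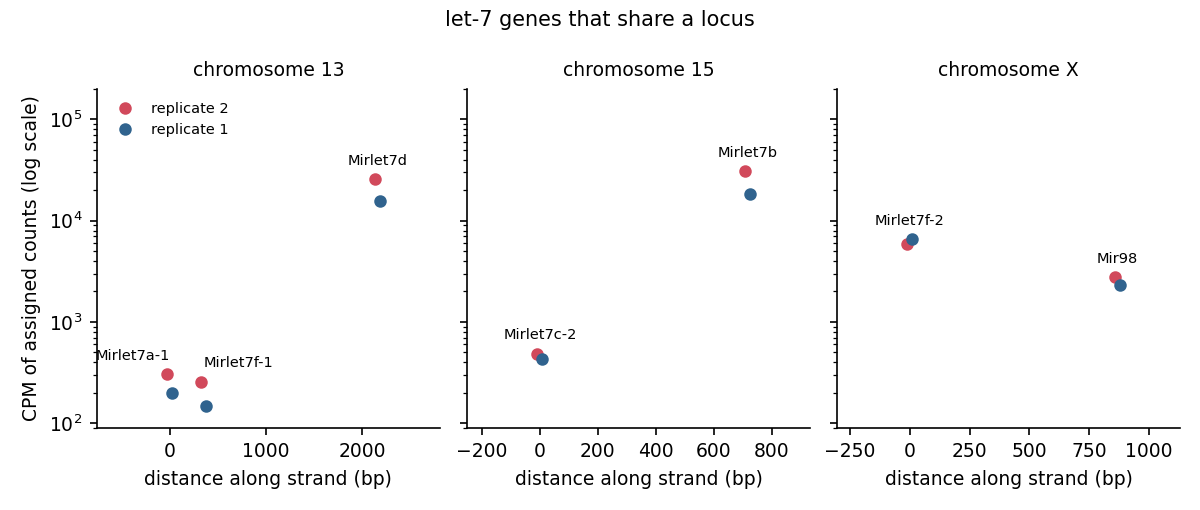
CPM on a log axis of the let-7 genes that share a locus, against distance along the strand in bp from the first hairpin, with replicate 2 in red and replicate 1 in blue (points moved slightly apart sideways). Mirlet7d and Mirlet7b stand far above their neighbours in assigned counts, at 15828 CPM or more against 484 CPM or less. Mirlet7f-2 and Mir98 lie within 2333 to 6541 CPM.

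For Mirlet7f-1 the levels rest on counts by strand. The M21 gene model Gm24111, a predicted microRNA gene, lies over it on the other strand, and Mirlet7f-1 had 0 counts in both libraries when strand was ignored, against 553 in replicate 2 and 661 in replicate 1 on its own strand. The same 553 and 661 reads stand as opposite-strand counts of Gm24111, which had 0 on its own strand.

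Replicate 2 was set against replicate 1 to see how alike let-7 levels were in equally labelled samples. Ratios are of CPM + 1 after edgeR's TMM scaling, and each of 380 microRNA genes with 10 or more counts was tested by a binomial test, exact and two-sided, with p-values adjusted by Benjamini-Hochberg over all 380 and a threshold of 0.05. The test sets 2 libraries against each other and says nothing of conditions, and there is no replicate of the difference. All 9 let-7 genes passed it, 8 higher and 1 lower in replicate 2. Over all genes tested 61.8% passed, 30.3% higher and 31.6% lower in replicate 2. Among the 118 genes with 1000 or more summed counts, 94.1% passed and 46.6% were higher, so at the depth of these members a call in itself is common. The median log2 ratio of the members was 0.66, beside 0.02 over all genes tested.

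Mirlet7f-1 and Mirlet7b had the highest log2 ratios, 0.87 (95% counting interval 0.71 to 1.04) and 0.86 (0.84 to 0.87). They were followed by Mirlet7d at 0.79 (0.77 to 0.80), Mirlet7a-1 at 0.71 (0.56 to 0.86), Mirlet7i at 0.66 (0.65 to 0.67) and Mirlet7g at 0.57 (0.56 to 0.58). All 3 genes of the chromosome 13 locus thus lay between 0.71 and 0.87, with overlapping intervals, although Mirlet7d was so much higher in level. Mir98 stood lower, at 0.33 (0.29 to 0.38), as did Mirlet7c-2, at 0.26 (0.15 to 0.37; adjusted p = 9.96e-06 in the exact binomial test). With no filter on low counts, which also moved the median of all genes to −0.16, Mirlet7c-2 no longer passed (log2 ratio 0.11, adjusted p = 0.109). Mirlet7f-2 was lower in replicate 2, at −0.05 (−0.08 to −0.02; adjusted p = 0.00500), and did not pass once the counts of replicate 1 were thinned to match replicate 2 (−0.0034, adjusted p = 0.912). The Huwe1 intron, summed over Mirlet7f-2 and Mir98, took 0.869% of assigned counts in replicate 2 and 0.887% in replicate 1. The chromosome 15 locus took 3.14% in replicate 2 and 1.86% in replicate 1, and the chromosome 13 locus took 2.62% and 1.62%.

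**Figure D4:**
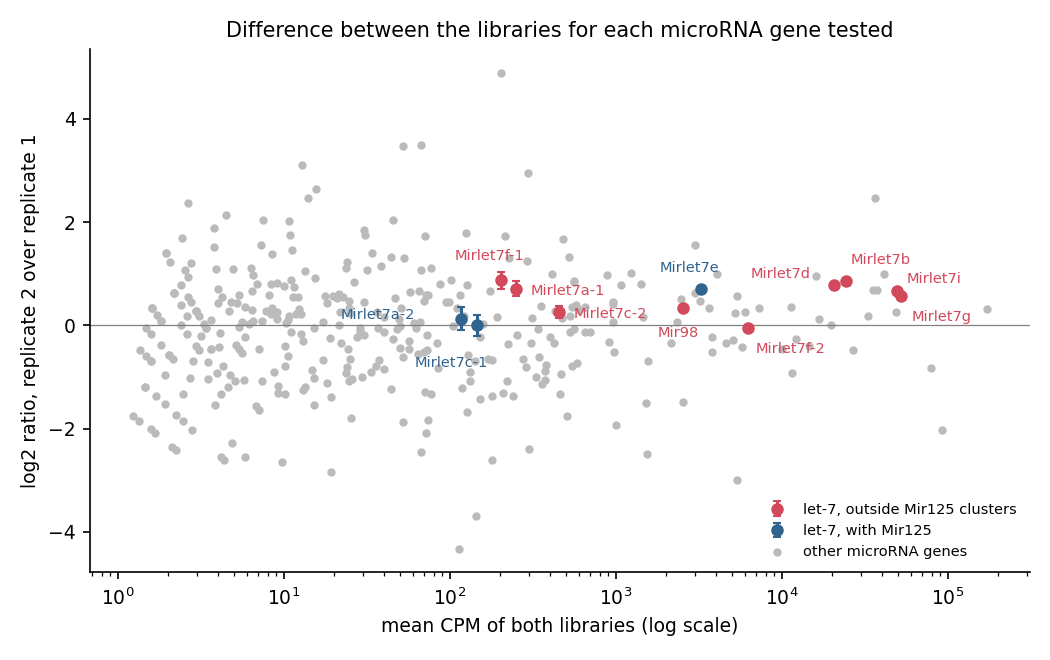
Log2 ratio of replicate 2 over replicate 1 against mean CPM on a log axis for the 380 microRNA genes tested, with the 9 let-7 genes outside the Mir125 clusters in red, the 3 others in blue and the rest in grey; error bars are 95% counting intervals. The red points lie between −0.05 and 0.87, within the spread of the grey points, which runs from −4.33 to 4.89.

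Other features differed between the libraries as well. Mir22 took 3.44% of assigned counts in replicate 2 and 15.0% in replicate 1. With Mir22 left out of the totals the 9 let-7 genes held 19.3% in replicate 2 and 15.0% in replicate 1, a ratio between the libraries of 1.29, against 1.46 with Mir22 in the totals. The 7 skeletal muscle markers, all with counts, summed to 6.22% in replicate 2 and 1.21% in replicate 1. Most of these assigned counts were of Mir206, and defining genes of the labelled tissue were present. Reads of the muscle markers that matched several places are not in the sums, and their number was not tested. These markers were divided: Mir206 (log2 ratio 2.48) and Mir499 (2.94) were higher in replicate 2, Mir1a-2 (−1.07), Mir1a-1 (−1.25) and Mir133b (−1.04) were lower, and Mir133a-1 (−0.30) and Mir133a-2 (−0.47) did not pass the binomial test. The endothelial marker Mir126a took 5.54% in replicate 2 and 10.4% in replicate 1. The red cell markers Mir144 and Mir451a summed to 109 CPM in replicate 2 and 777 CPM in replicate 1, and the liver marker Mir122 was at 396 CPM in replicate 2 and at 13.3 CPM in replicate 1. All 6 epithelial markers had counts, summing to 14.8 CPM in replicate 2 and 63.9 CPM in replicate 1. Of the 6 neuronal markers, Mir9-1, Mir9-2 and the 3 Mir124a genes had no count, and the sum was 2.78 CPM in replicate 2 and 0 in replicate 1. The part of these cell types in the let-7 differences was not tested.

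The 3 let-7 genes beside Mir125 held far fewer of the assigned counts as a group, 0.422% in replicate 2 and 0.286% in replicate 1. Mirlet7e, whose 5p sequence occurs in 1 microRNA gene, differs from let-7a-5p by U9G and made up most of that share. Its level was 3955 CPM in replicate 2 and 2593 CPM in replicate 1, between Mirlet7f-2 and Mir98 by its mean. Like that of Mirlet7f-1 it rests on counts by strand, since the gene model Gm25927 lies over it on the other strand, and Mirlet7e had 0 counts in both libraries when strand was ignored. Mirlet7a-2 was at 119 CPM in replicate 2 and at 116 CPM in replicate 1, and Mirlet7c-1 at 142 and 151 CPM. Their 5p sequences are also those of Mirlet7a-1 and Mirlet7c-2, and reads of these 22 nt, or of a part of them, are not counted. The levels of Mirlet7a-2 and Mirlet7c-1, and their ratios to those copies, are therefore uncertain. Mirlet7a-1 was 2.54-fold above its copy Mirlet7a-2 in replicate 2 (2.20 to 2.95) and 1.71-fold in replicate 1 (1.53 to 1.91). Mirlet7c-2 was 3.41-fold above Mirlet7c-1 in replicate 2 (3.0 to 3.88) and 2.85-fold in replicate 1 (2.61 to 3.12). Of these 3 genes, Mirlet7e passed the test with a log2 ratio of 0.70 (0.66 to 0.74), while Mirlet7a-2 at 0.13 and Mirlet7c-1 at 0.00 did not.

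Further RefSeq genes with the let-7 seed in a mature sequence had almost no assigned counts, which leave out reads that matched several places. Mir1961 had no count in either library, and Mir7k had 0 counts in replicate 2 and 1 count in replicate 1. Among 18 other genes with 10000 or more mean CPM, those with log2 ratios nearest to the members' median were Mir23b and Mir26b, both at 0.68, and Mir139 at 0.96. They were picked for this nearness, so it is not a finding of its own, and Mir139 lay above the highest member, at 0.87. With 2 libraries each value is a single ratio per gene. Mir23b was at 44840 CPM in replicate 2 and at 29905 CPM in replicate 1, and Mir26b at 42455 and 28305 CPM.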

How the data were processed

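The authors deposited a table of raw read counts by microRNA gene for each library, made on mm10 with annotation M21 per the file headers in their readmes. The aligner, like the trimming and the counter, is not given in the sources used here. The tables have 3 count columns, taken from their values to be unstranded, sense and antisense, and the sense counts were used. Lines for reads of no gene stayed out of totals. They were 80.2% of the reads of replicate 2 and 84.3% of those of replicate 1, mostly multimapping. Genes with a copied mature sequence therefore lack the reads of that sequence or of a part of it, in a number that was not tested.

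CPM were computed over all 2202 genes, whose identifiers all matched M21. The binomial test used TMM-scaled library sizes, since 1 library on each side leaves no residual degrees of freedom for edgeR's quasi-likelihood test. It was tested on simulated data with counting error only, so not for other differences between libraries. Intervals of ratios are exact Clopper-Pearson and those of shares Wilson, at 95%. Genes were named as members, family, nearest genes in log2 ratio, neighbours within 10000 bp, hosts, and genes that move totals. Members and lists were chosen with earlier results of these data known. The alternatives were counts without strand, other scalings, pseudocounts and filters, thinning, genes with copies left out and each library alone. Scaling was done in edgeR 4.0.16 and DESeq2 1.42.0 under R 4.3.3. Tests used scipy 1.17.1 in Python 3.11.15, and plots matplotlib 3.10.9.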

Additional observations from a re-analysis of the deposited data

Results flagged for a closer look

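Mirlet7b had 6 counts on the opposite strand in replicate 2 and 4 in replicate 1, beside 66573 and 80743 counts on its own strand. It was flagged for having more than 3, the limit that goes with a count of 0, which is not a test. M21 has no microRNA gene on the opposite strand within 10000 bp of Mirlet7b, and none of the other 8 members had an opposite-strand count. Abundant genes outside the let-7 family were not compared in this respect.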

How the results depend on the processing

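With counts without strand the 9 genes held 21.7% of assigned counts, since fewer reads were then assigned, and Mirlet7f-1 had none. Each library alone gave a share of 12.7% to 18.6%, and 94.3% to 96.2% of it in genes with a 5p sequence at 1 locus. The members' median log2 ratio was 0.59 with counts without strand, 0.57 with plain library totals, 0.62 with DESeq2 size factors, 0.51 with no filter on low counts and 0.72 with replicate 1 thinned. Leaving out the 4 members with a copied 5p sequence left 5 members, of which 5 passed the test and 5 were higher in replicate 2. Among all genes with 1000 or more summed counts, as these members have, 94.1% passed and 46.6% were higher. Mirlet7f-2 lay below 0 under all scalings, filters, pseudocounts and thinning run, from −0.19 to −0.0034, and the other members lay above 0. For Mirlet7f-2 and Mirlet7c-2, each of which lost its call under 1 alternative, the cause was not tested. The 2 libraries limit every SD, and members under 500 CPM rest on 553 to 1915 counts a library. No paired analysis was possible because there was 1 group.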
